A study of Homo sapiens with 6 samples.

Results

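The 309 RNAs described here were the named antisense long noncoding RNAs of NB4 cells, a human acute promyelocytic leukemia cell line. They were chosen by their names and by their level. A gene was a member when its symbol was that of another gene followed by -AS and 1 digit and when its mean over the 6 libraries was at least 20 normalized counts (reads per gene after division by a size factor of the library). The table held 18625 genes, of which 457 had such a symbol at any level and 309 met both conditions. NB4 cells were kept for 3 days with DMSO, the solvent, or with Tanshinone I (Tan I, a diterpene of the herb Dan-shen, which the study examined as an inhibitor of the histone methyltransferase EZH2) at 10 μM. RNA-seq gave 3 libraries per group, and both groups came from this one cell line, which carries no engineered change. The mean level chose the members, and the comparison of Tan I with DMSO did not enter the choice. Just below the limit lay A1BG-AS1 (19.9), TSBP1-AS1 (19.9) and VIM-AS1 (19.9), and just above it lay TMEM92-AS1 (20.02), BASP1-AS1 (20.03) and CIRBP-AS1 (20.1).

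An antisense RNA is made from the DNA strand opposite to that of a protein-coding gene, the sense gene, and carries that gene's name. Some start beside the sense gene's own promoter and run away from it (divergent), some lie inside the sense gene, and some run across its start or end. Antisense RNAs are known for acting near their own site, through the act of transcription or by recruiting chromatin factors to the sense gene, and some, such as OIP5-AS1, act elsewhere by binding microRNAs and proteins. Many are short-lived, because the nuclear exosome and its cofactors degrade noncoding transcripts of divergent promoters. In myeloid cells the best known examples lie in the HOX clusters and at genes of hematopoietic transcription factors.

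The start regions of the members on which the results turned follow, from RefSeq on GRCh38.p14, each written 5′ to 3′. The table of RefSeq start regions held 283 windows for 235 members, each covering 250 bases before and 50 after a start. Capitals mark GCGTG or its reverse complement CACGC, the core of the DNA element read by the aryl hydrocarbon receptor (AHR), which was searched on both strands because CYP1B1 and TIPARP, sense genes described below, are textbook AHR targets. The first window is chr2:38130855-38131154 on the plus strand, where RefSeq starts CYP1B1-AS1. That start lies 55405 bases from the GENCODE start used for the arrangement below, inside the body of the RNA.
CYP1B1-AS1: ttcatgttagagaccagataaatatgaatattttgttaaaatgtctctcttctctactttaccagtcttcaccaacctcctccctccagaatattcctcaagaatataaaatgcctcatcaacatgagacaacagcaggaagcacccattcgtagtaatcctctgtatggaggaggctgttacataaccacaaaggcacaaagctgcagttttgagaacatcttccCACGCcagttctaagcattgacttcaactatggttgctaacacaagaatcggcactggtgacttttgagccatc
The next is the whole stretch between the starts of TIPARP and TIPARP-AS1, chr3:156674447-156674589, written on the plus strand, along which TIPARP is transcribed. It is shown because the starts of both RNAs flank these 143 bases.
TIPARP and TIPARP-AS1: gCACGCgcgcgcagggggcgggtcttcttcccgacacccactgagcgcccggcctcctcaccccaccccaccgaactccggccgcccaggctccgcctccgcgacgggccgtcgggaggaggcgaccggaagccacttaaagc
The 111 bases between SMC5 and SMC5-AS1, chr9:70258867-70258977 on the plus strand, have the same arrangement and hold no GCGTG.
SMC5 and SMC5-AS1: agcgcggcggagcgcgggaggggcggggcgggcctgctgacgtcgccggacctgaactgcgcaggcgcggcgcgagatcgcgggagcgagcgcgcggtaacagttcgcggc
The windows of the antisense RNAs of HDAC4 (chr2:239401470-239401769, plus strand) and ASB16 (chr17:44186668-44186967, minus strand) stand for a member called lower and a member called higher after Tan I.
HDAC4-AS1: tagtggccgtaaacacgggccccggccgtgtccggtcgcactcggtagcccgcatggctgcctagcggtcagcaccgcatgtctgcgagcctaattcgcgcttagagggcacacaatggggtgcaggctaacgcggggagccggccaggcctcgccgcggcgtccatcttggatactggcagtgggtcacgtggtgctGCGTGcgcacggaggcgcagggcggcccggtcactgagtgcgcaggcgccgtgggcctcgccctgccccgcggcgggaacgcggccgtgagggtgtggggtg
ASB16-AS1: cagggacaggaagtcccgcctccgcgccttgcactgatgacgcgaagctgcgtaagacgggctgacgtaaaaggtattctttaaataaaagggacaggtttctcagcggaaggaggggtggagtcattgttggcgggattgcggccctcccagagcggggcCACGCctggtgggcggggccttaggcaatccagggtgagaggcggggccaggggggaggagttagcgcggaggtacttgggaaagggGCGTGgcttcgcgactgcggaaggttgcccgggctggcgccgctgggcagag
The motif stood in 145 of the 283 member windows (51.2%) and in 12832 of the 35116 windows of all genes (36.5%). Member windows were also richer in G and C, with a median of 63.3% against 58.7%, and in CpG, with a median of 22 against 14 per window. The stretches at TIPARP and SMC5 were 74.8% and 78.4% G and C, whereas the window of CYP1B1-AS1 was 41.3%. A match is a run of letters and does not show that a factor binds there.

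The reads recovered on the listed genes numbered 25356503 to 31679138 in the DMSO libraries and 21502760 to 24298627 in the Tan I libraries (genes outside the table are not counted). Of 6 markers of promyelocytes 5 were listed, with MPO (myeloperoxidase) at 60389 to 64107 normalized counts in DMSO and at 33279 to 39450 in Tan I, and ELANE was not listed. CTSG was at 1536 to 2392 in DMSO and 839 to 1496 in Tan I, again without overlap. PRTN3 (1767 to 2340 and 1083 to 1943), AZU1 (3473 to 4612 and 2505 to 3809) and CD33 (3473 to 3868 and 3578 to 4119) overlapped between the groups. The erythroid markers HBA1 and HBB were not listed, CD3E was at 8.67 to 20.02, CD3D was at 245 to 515 and EPCAM at 144 to 253, and MS4A1 and KRT19 were not listed. The part of the lower MPO and CTSG in any result below was not tested, and in bulk RNA fewer cells of a type and less RNA per cell cannot be told apart. The first principal component over the genes tested held 70.8% of the variance, and on it Tan I replicate 3 scored 71.6 and DMSO replicate 2 scored 41.1, against -48.0 and -26.7 for the other two DMSO libraries and -46.8 and 8.65 for the other two Tan I libraries. Several results that rest on these libraries are given below with and without them. The comparison by place inside another gene is given only with them.

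Most antisense RNAs were scarce, and a few were abundant. The median member had a mean of 77.4 normalized counts, against 332 for all 16887 genes tested, and the range ran from 20.02 to 21065. A mean over 1000 was reached by 17 members, 114 lay between 100 and 1000, and 178 lay below 100. The 3 highest members, GABPB1-AS1, OIP5-AS1 and SLC9A3-AS1, made up 39.0% of the counts of all members, and the 10 highest made up 55.2%.

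GABPB1-AS1 starts beside GABPB1, which encodes a subunit of an ETS-family transcription factor, and is transcribed away from it (chromosome 15, 50354944 to 50372202, plus strand). It had 27727, 16843 and 22246 normalized counts in DMSO replicates 1, 2 and 3 and 28077, 18315 and 13184 in Tan I replicates 1, 2 and 3. The lowest library was Tan I replicate 3, and the groups overlapped. OIP5-AS1, known as Cyrano and for binding the microRNA miR-7 and the protein HuR, lies on chromosome 15 (41283958 to 41322392, plus strand), and its start region holds 1 motif.
OIP5-AS1: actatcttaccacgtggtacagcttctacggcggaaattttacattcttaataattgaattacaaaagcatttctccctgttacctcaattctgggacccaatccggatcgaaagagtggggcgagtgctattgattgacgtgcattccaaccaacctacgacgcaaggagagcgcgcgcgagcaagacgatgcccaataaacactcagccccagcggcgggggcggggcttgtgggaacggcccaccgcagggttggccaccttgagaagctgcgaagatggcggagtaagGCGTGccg
It had 13207, 10135 and 11707 normalized counts in DMSO and 13547, 12167 and 9732 in Tan I. SLC9A3-AS1, beside the gene of a sodium-proton exchanger, had 9956, 9938 and 10441 in DMSO and 10105, 12173 and 11147 in Tan I. Neither RNA separated the groups, and their log2 fold changes were 0.01 ± 0.17 (SE) and 0.14 ± 0.12. FGD5-AS1, the tenth highest, was level across all libraries, at 1798 ± 90.8 (SD, n = 3) with DMSO and 1792 ± 171 with Tan I. The steadiest of all members was NUTM2A-AS1, with 702, 726 and 758 in DMSO and 746, 711 and 788 in Tan I.

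Levels of an antisense RNA and its sense gene were compared per kilobase of exon. For 292 members the sense gene was in the table, and the median sense gene stood 4.89 times above its antisense RNA per kilobase. The order was the other way for 66 of the 292, and 9 antisense RNAs stood at least 10 times above their sense genes per kilobase. The widest gap was at EPB41L4A-AS1, with 885 normalized counts per kilobase against 1.19 for EPB41L4A, a ratio of 743. GABPB1-AS1 had 1221 per kilobase against 71.0 for GABPB1, and SLC9A3-AS1 had 2246 against 295 for SLC9A3. At the other end, NCF4-AS1 had 22.2 per kilobase against 3446 for NCF4, a subunit of the phagocyte NADPH oxidase, and MORF4L2-AS1 had 25.6 against 3940 for MORF4L2, a chromatin protein. These gene-level lengths join the exons of all transcripts, so a gene with many annotated isoforms has a lower value per kilobase.

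**Figure D1:**
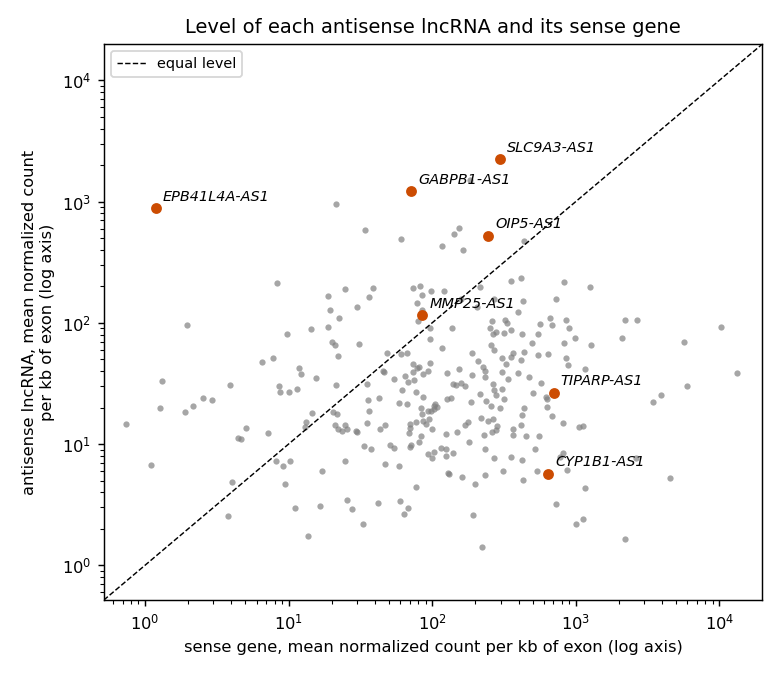
Mean level per kilobase of exon over the 6 libraries for each antisense RNA (vertical axis, log scale) against its sense gene (horizontal axis, log scale), 1 point per pair and 292 pairs. The diagonal marks equal levels, and 66 points lie above it, with EPB41L4A-AS1 farthest from it.

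The members differed in how they lie beside the sense gene. By the canonical transcripts of GENCODE release 44, 90 members were divergent, with starts a median of 203 bases apart and 77 of them within 1000 bases. A further 62 overlapped the sense gene at the starts, 62 at the ends, 51 lay inside it, 19 spanned it, and 8 lay downstream. Of the 308 members with a GENCODE position, 302 were annotated as long noncoding RNAs and 6 as other types (5 of them pseudogenes). GENCODE now gives 26 members another name, and 22 of these end in -DT for divergent transcript. Bases of exon shared with the sense gene on the other strand were found for 219 members. No strand setting is given in the sources used here, so reads in such shared stretches, and reads from introns of the sense gene, cannot be assigned to a strand with certainty.

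After Tan I, 14 of the 309 antisense RNAs (4.53%) passed limma at an unadjusted p of at most 0.05 with a log2 fold change of at least 0.25 in size, 9 higher and 5 lower, where 2.42% of all 16887 genes tested passed (1.32% higher and 1.10% lower). When the libraries were rescaled to one common total, 13 passed, 12 of them among the 14, with 7 higher and 6 lower (2.59% of all genes, 1.11% higher and 1.48% lower). None reached a Benjamini-Hochberg adjusted p of at most 0.05 in limma (smallest 0.999; 0.00% of all genes). In edgeR the count was also 0 (0.00%), with 14 at the unadjusted threshold (2.42%). In DESeq2 it was 0 (0.120%), with 12 at the unadjusted threshold (2.49%). The calls of both tools were among the 14. Without the fold threshold 14 members also passed (2.43% of all genes), and with a log2 threshold of 1 the count was 0 (0.290%). The term called is used below for the unadjusted threshold. All 309 members passed the filter on low values. The groups did not overlap for 24 members (7.77%; 13 higher and 11 lower in Tan I), against 7.89% of all genes tested (3.92% higher and 3.97% lower). The 24 were the 14 called members and 10 others.

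The median log2 fold change of the members was -0.06, against -0.00 over all genes tested, with 129 members above 0 and 180 below. The median was 0.01 with the score on the first component in the model and 0.05 without Tan I replicate 3. Without DMSO replicate 2 it was -0.08, and without both of these libraries it was -0.05. In all other alternatives it was also below 0. The share above 0 was 41.7% among the members and 49.7% among all genes tested. The standard error of a member's log2 fold change ran from 0.10 to 1.57 with a median of 0.28. A change must be well above its standard error to pass the p threshold, so small changes of most members could not be told from 0. The number called was 10 without both DMSO replicate 2 and Tan I replicate 3, 8 of them among the 14, where 2.82% of all genes passed. It was 10 without DMSO replicate 2 (background 2.76%), 10 without Tan I replicate 3 (1.60%), 8 without DMSO replicate 1 (1.07%), 7 without DMSO replicate 3 (1.19%), 6 without Tan I replicate 2 (0.947%) and 23 without Tan I replicate 1 (8.86%).

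Among the members called higher, CYP1B1-AS1 had the smallest p of all 309 and was called under all 18 alternatives. CYP1B1 is a cytochrome P450 that oxidizes estrogens and aromatic hydrocarbons, and CYP1B1-AS1 runs across its start on the other strand (chromosome 2, 38073447 to 38231651, plus strand). CYP1B1-AS1 had 48.5, 40.5 and 35.9 normalized counts in DMSO and 92.9, 69.6 and 73.3 in Tan I. Every Tan I library lay above every DMSO library, also above DMSO replicate 2. The log2 fold change was 0.90 ± 0.23 (SE; 95% interval 0.35 to 1.45) with an unadjusted p of 0.00577 in limma and an adjusted p of 0.999 by Benjamini-Hochberg.

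DLGAP1-AS2 was the other member called under all 18 alternatives. It had 102, 120 and 106 normalized counts in DMSO and 160, 174 and 161 in Tan I, a log2 fold change of 0.59 ± 0.16. The sense gene DLGAP1, a scaffold of synapses, was not found in the table. HOXC-AS1 lies in the HOXC cluster of homeobox genes on chromosome 12 (53999022 to 54000010, minus strand), over HOXC6 and HOXC9. It had 15.9, 11.6 and 12.5 in DMSO and 26.4, 25.3 and 29.3 in Tan I, the largest log2 fold change of the members called, at 0.98 ± 0.30. Its DMSO mean was 13.3 ± 2.26 (SD, n = 3), and it was called in 16 of 17 alternatives.

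PSPC1-AS2, downstream of the gene of the paraspeckle protein PSPC1, had 67.1, 56.8 and 61.7 in DMSO and 87.0, 132 and 94.7 in Tan I. Its highest library was Tan I replicate 2, and without that library its log2 fold change of 0.73 ± 0.23 became 0.55 and was no longer called (unadjusted p 0.0612 in limma). SMC5-AS1, divergent from the gene of a subunit of the SMC5/6 DNA repair complex by 112 bases, had 18.6, 18.3 and 20.3 in DMSO and 29.3, 33.7 and 29.3 in Tan I. The groups did not overlap, and it was called in 7 of 17 alternatives (log2 fold change 0.66 ± 0.27). ZFPM2-AS1, named after the GATA cofactor ZFPM2, had 144, 217 and 156 in DMSO and 223, 259 and 300 in Tan I (log2 fold change 0.61 ± 0.21). The highest DMSO library, replicate 2, came close to the lowest Tan I library.

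VAC14-AS1 lies inside VAC14, which encodes the scaffold of the PIKfyve lipid kinase complex (chromosome 16, 70755035 to 70773251, plus strand). It had 158, 170 and 130 in DMSO and 202, 254 and 203 in Tan I, a log2 fold change of 0.52 ± 0.18. ASB16-AS1 overlaps the end of ASB16, a member of the ankyrin repeat and SOCS box family. It had 375, 386 and 428 in DMSO and 502, 524 and 541 in Tan I (log2 fold change 0.40 ± 0.12). The lowest Tan I library lay well above the highest DMSO library. MMP25-AS1 was the most abundant called member, with 750, 670 and 726 in DMSO and 1058, 1001 and 797 in Tan I (log2 fold change 0.40 ± 0.14). Its Tan I libraries were spread, with replicate 3 lowest. MMP25-AS1 was called in 13 of 18 alternatives, and not when the libraries were rescaled to one common total (unadjusted p 0.120 in limma) or when any of DMSO replicate 2, DMSO replicate 3, Tan I replicate 1 and Tan I replicate 2 was left out.

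The number of members called lower was 5 (1.10% of all genes), and 1 without both DMSO replicate 2 and Tan I replicate 3 (1.22%). That 1 was HDAC4-AS1 (log2 fold change -0.86, unadjusted p 0.0215 in limma). TRAM2-AS1, SGMS1-AS1, RBM26-AS1 and DHRS4-AS1 lost their calls without these libraries. TRAM2-AS1 starts 254 bases from TRAM2, which encodes a protein of the translocon of the endoplasmic reticulum. It had 75.5, 83.8 and 85.2 in DMSO and 53.8, 55.9 and 44.01 in Tan I, a log2 fold change of -0.67 ± 0.21. SGMS1-AS1 starts 987 bases from the gene of sphingomyelin synthase 1. It had 55.0, 51.0 and 36.7 in DMSO and 29.3, 32.7 and 22.7 in Tan I (log2 fold change -0.73 ± 0.28). DMSO replicate 3 lay close to the Tan I libraries in SGMS1-AS1, whereas TRAM2-AS1 showed a clear gap. SGMS1-AS1 was called in 11 of 17 alternatives and TRAM2-AS1 in 16 of 18.

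HDAC4-AS1, whose sense gene encodes a class IIa histone deacetylase, had 49.4, 50.1 and 55.5 in DMSO and 25.4, 31.6 and 42.7 in Tan I (log2 fold change -0.65 ± 0.27). RBM26-AS1, which starts 46 bases from the gene of an RNA-binding protein, had 97.9, 88.6 and 96.9 in DMSO and 79.2, 55.9 and 53.3 in Tan I (log2 fold change -0.60 ± 0.22). In both RNAs the DMSO libraries were close together and 1 Tan I library, replicate 3 in HDAC4-AS1 and replicate 1 in RBM26-AS1, lay nearest to them. HDAC4-AS1 was called in 9 of 17 alternatives, and RBM26-AS1 in 13 of 18. HDAC4-AS1 was not called in DESeq2 (unadjusted p 0.0581), or in limma with quantile normalization or with the replicate number as a block. Its call was also lost when any single library other than Tan I replicate 3 was left out. DHRS4-AS1 spans DHRS4, the gene of a retinoid-metabolizing dehydrogenase, and its neighbour DHRS4L2. It had 178, 264 and 166 in DMSO and 145, 120 and 141 in Tan I, a log2 fold change of -0.55 ± 0.22. Without DMSO replicate 2 this became -0.35 (unadjusted p 0.103 in limma). DHRS4-AS1 was called in 13 of 18 alternatives. The call was also lost with the replicate number as a block, without Tan I replicate 2, without Tan I replicate 3, and without both DMSO replicate 2 and Tan I replicate 3.

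**Figure D2:**
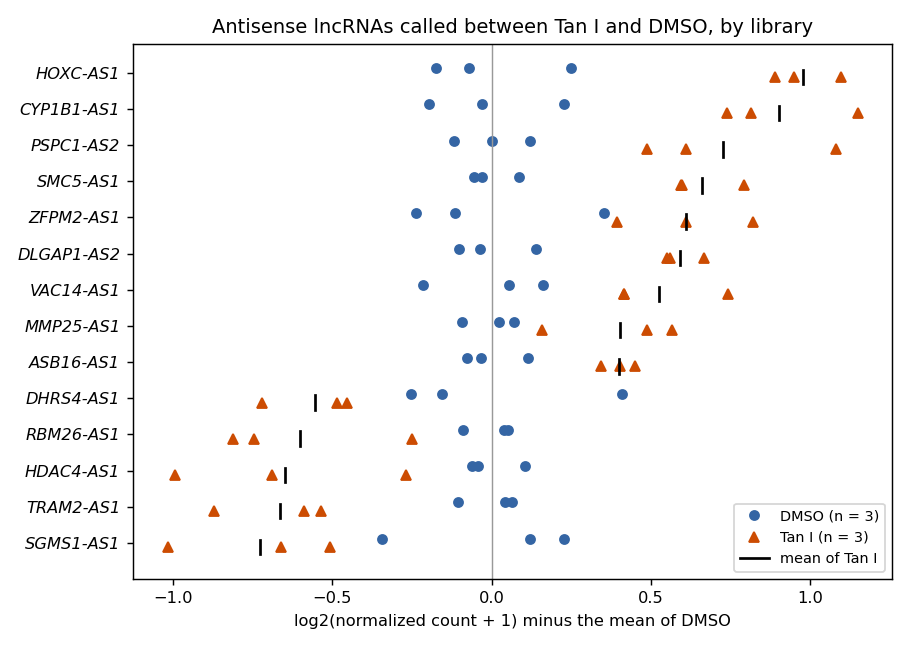
The 14 called antisense RNAs (vertical axis) with log2(normalized count + 1) of each library minus the DMSO mean (horizontal axis), circles for 3 DMSO and triangles for 3 Tan I libraries, and a bar at the Tan I mean. For each RNA all Tan I points lie on one side of all DMSO points, and these RNAs were picked by their call.

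With the score on the first component added to the model, 37 members were called (23 higher and 14 lower), all 14 among them, where 8.86% of all genes passed (4.25% higher and 4.61% lower). In that fit 2 members (1.15% of all genes) had an adjusted p of at most 0.05 by limma and Benjamini-Hochberg, MMP25-AS1 at 0.00983 and CYP1B1-AS1 at 0.0445. The score was computed from the same libraries.

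The sense genes of the members were then set beside them. Of 289 sense genes tested, 9 were called (3.11%, against the same background of 2.42%), 6 higher and 3 lower. The sense genes called higher were CYP1B1 (log2 fold change 0.85), MMP25, a metalloproteinase of the leukocyte membrane (0.70), NCF4 (0.63), TIPARP, a mono-ADP-ribosyltransferase that represses AHR (0.50), ARRDC3, an arrestin-like adaptor (0.35), and MORF4L2 (0.34). Those called lower were the lipoprotein receptor gene VLDLR (-0.27), MYB, a transcription factor of blood progenitors (-0.32), and TSPOAP1 (-0.38). In 2 pairs, CYP1B1 and MMP25, both the sense and the antisense RNA were called, and both were higher after Tan I.

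CYP1B1 had 2474, 3459 and 2385 normalized counts in DMSO and 4789, 4518 and 5541 in Tan I. CYP1B1-AS1 stayed far below it, and the log2 ratio of antisense to sense differed by 0.05 between the groups (exact permutation test, two-sided, p = 0.9). MMP25 had 289, 322 and 307 in DMSO and 467, 493 and 537 in Tan I, and the log2 ratio of MMP25-AS1 to MMP25 differed by -0.30 (exact permutation p = 0.2). At these loci the ratio overlapped between the groups. CYP1B1-AS1 shares 678 bases of exon with CYP1B1, and MMP25-AS1 shares 1454 with MMP25. Without a known strand setting, the strand that gave the reads counted at these loci is uncertain.

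TIPARP and TIPARP-AS1, which start 144 bases apart, had the lowest difference of the log2 ratio among the pairs whose groups did not overlap. TIPARP had 3068, 2325 and 2976 in DMSO and 4343, 3933 and 3537 in Tan I, every Tan I library above every DMSO library. TIPARP-AS1 had 42.0, 32.7 and 43.0 in DMSO and 24.4, 30.6 and 38.7 in Tan I, with overlap and no call (log2 fold change -0.33 ± 0.28). The log2 ratio of TIPARP-AS1 to TIPARP was therefore lower by 0.84 after Tan I, from -6.12 to -6.95, with no overlap between the groups, and the pair is described here for that reason. The pair shares no bases of exon.

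Over all 292 pairs the log2 ratio did not overlap between the groups in 20 (6.85%, 14 higher and 6 lower in Tan I). Of 2987 pairs of overlapping opposite-strand genes with means of at least 20, which include overlapping member pairs, 7.03% did so (3.52% in each direction). Their ratios were taken in order of gene identifier, not antisense over sense, so the 3.52% is no reference for the 14 and the 6. Divergent member pairs, unlike these, do not overlap by their canonical transcripts. Antisense RNAs called while the sense gene was not gave 4 of the 20, with differences of 0.68 at SMC5-AS1, 0.54 at VAC14-AS1, 0.53 at PSPC1-AS2 and -0.69 at SGMS1-AS1. SMC5 itself had 1310, 1071 and 1236 in DMSO and 1378, 1161 and 1039 in Tan I, and VAC14 had 825, 1027 and 860 in DMSO and 771, 938 and 978 in Tan I. Both sense genes overlapped between the groups. Across the 291 pairs with both genes tested, 143 moved in the same direction and 148 in opposite directions, and the log2 fold changes had a Pearson r of 0.11 and a Spearman rho of 0.07, given as a description, since the points share the same 6 libraries.

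**Figure D3:**
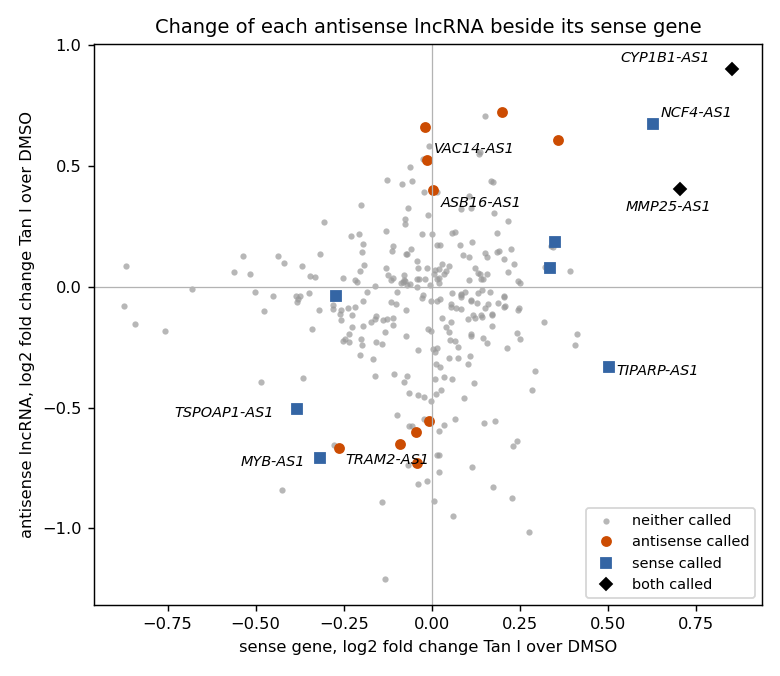
Log2 fold change, Tan I against DMSO, for each antisense RNA (vertical axis) against its sense gene (horizontal axis), 1 point per pair and 291 pairs. Only the pairs of CYP1B1 and MMP25 are called on both axes, and over all pairs Pearson r is 0.11.

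The 7 other called sense genes had antisense RNAs that were not called. NCF4 had 5322, 7023 and 5787 in DMSO and 7474, 9813 and 10871 in Tan I. NCF4-AS1 had 22.4, 14.4 and 23.4 in DMSO and 40.1, 43.2 and 18.7 in Tan I, so that Tan I replicate 3 lay among the DMSO libraries (log2 fold change 0.67 ± 0.41). Without that library NCF4-AS1 was called, with a log2 fold change of 1.04 (unadjusted p 0.0203 in limma). MYB had 3299, 3825 and 3150 in DMSO and 2801, 2771 and 2652 in Tan I. MYB-AS1, inside MYB, had 72.7, 24.1 and 56.3 in DMSO and 55.7, 46.4 and 8.002 in Tan I, and its low values were in DMSO replicate 2 and Tan I replicate 3 (log2 fold change -0.71 ± 0.75). TSPOAP1-AS1 had 35.4, 48.2 and 34.4 in DMSO and 29.3, 25.3 and 26.7 in Tan I, with no overlap and a log2 fold change of -0.51 ± 0.27, past the p threshold only in limma without the trend in variance. VLDLR-AS1, at 794 ± 64.8 (SD, n = 3) with DMSO and 779 ± 127 with Tan I, ARRDC3-AS1 and MORF4L2-AS1 had log2 fold changes of -0.04, 0.19 and 0.08, within their standard errors.

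Much of the variation of the antisense RNAs lay within the groups. The members summed to 0.510, 0.392 and 0.454% of the counts of the listed genes in DMSO and to 0.515, 0.434 and 0.346% in Tan I. In each group the same library that stood highest on the first principal component had the lowest share. The sums were 112034 ± 8833 (SD, n = 3) normalized counts for DMSO and 110811 ± 11589 (SD, n = 3) for Tan I ( exact permutation test, two-sided, p = 0.9). Tan I replicate 3 was the lowest library for 117 members (37.9%), against 27.9% of all genes tested.

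A gap of at least 4 times between the highest and the lowest library, each with 1 normalized count added, was found for 39 members (12.6%) and for 7.17% of all genes tested. In all 39, DMSO replicate 2 was the lowest DMSO library and Tan I replicate 3 the lowest Tan I library. The lowest of all 6 was Tan I replicate 3 in 34 of them and DMSO replicate 2 in 5, and none of the 39 was called. The widest was RBM12B-AS1, with 52.2, 2.89 and 28.1 normalized counts in DMSO and 57.7, 16.9 and 0 in Tan I. A level of 0 in Tan I replicate 3 allows up to 4.001 normalized counts there (3 reads, counting error only). NADK2-AS1 had 104, 10.6 and 67.2 in DMSO and 78.2, 22.1 and 2.67 in Tan I, while its sense gene NADK2, a mitochondrial NAD kinase, had 1291, 1502 and 1276 in DMSO and 1089, 1253 and 1376 in Tan I. PRC1-AS1, inside a gene of cytokinesis, had 315, 56.8 and 194 in DMSO and 331, 109 and 24.0 in Tan I.

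The share of members with a wide gap differed with position, and so did the level, with a median mean of 43.4 normalized counts inside the sense gene, 71.8 for divergent members, 91.8 at the starts and 111 at the ends. The part of the level was not tested. Wide gaps were found in 22 of the 51 members inside the sense gene (43.1%), in 8 of 62 that overlapped it at the ends (12.9%), in 5 of 62 at the starts (8.06%) and in 3 of 90 divergent members (3.33%). The spanning and downstream members had 0 of 19 and 0 of 8. Over the 4 libraries other than DMSO replicate 2 and Tan I replicate 3, 4 members (1.29%) and 1.58% of all genes tested had such a gap, 3 of the 4 members lay inside the sense gene, and the median gap was 1.60 times for the members inside it and 1.38 times for the divergent members. Among 38 wide members with a sense gene in the table, 1 sense gene, PRC1, had a gap of at least 4 times, and the median gap of these sense genes was 1.34 times.

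The place inside another gene was also set beside the gap for genes that are not members. At the same minimum level, 96 of 322 other long noncoding RNAs wholly inside a listed gene of the opposite strand (29.8%) had a gap of at least 4 times. Of those not wholly inside a listed gene, 78 of 943 (8.27%) had it. The second class includes genes that partly overlap or span another gene. Of protein-coding genes, these were 14 of 292 (4.79%) and 160 of 11454 (1.40%). By the same definition, which uses whole gene bounds and any listed gene, 24 of 65 members inside an opposite-strand gene (36.9%) had such a gap. Of the members not wholly inside a listed gene, 15 of 242 (6.20%) had it. Inside a gene of the same strand the share was 18.2% of other long noncoding RNAs (29 of 159) and 7.69% of protein-coding genes (7 of 91), so it was not particular to the opposite strand. The median mean was 43.9 normalized counts for members inside an opposite-strand gene and 87.8 for those not wholly inside a listed gene. For other long noncoding RNAs it was 50.9 inside an opposite-strand gene, 52.0 inside a same-strand gene and 62.5 when not wholly inside a listed gene. For protein-coding genes these medians were 305, 141 and 753. The part of the level in these shares was not tested. All these shares were taken over the 6 libraries only, with DMSO replicate 2 and Tan I replicate 3 included. No test was made, since the genes share the same 6 libraries.

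**Figure D4:**
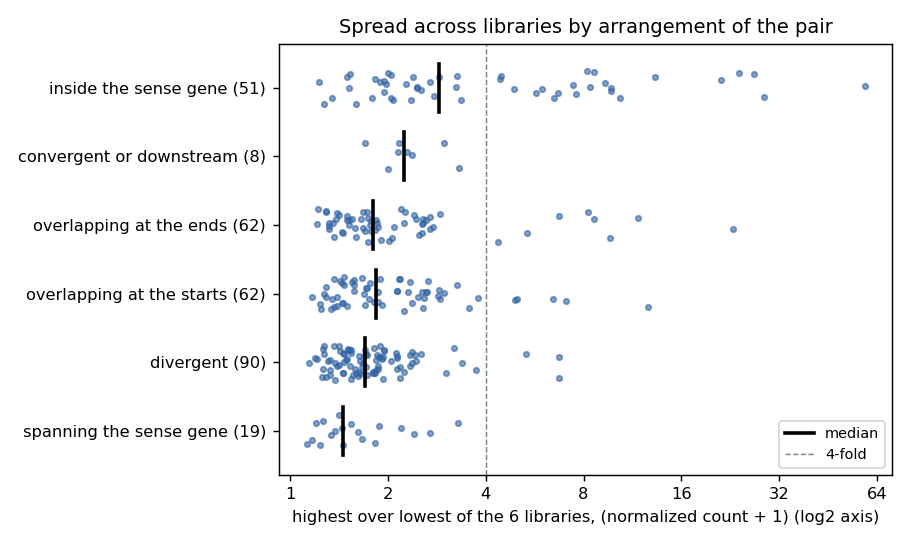
Highest over lowest library, each with 1 normalized count added (horizontal axis, log scale), for each antisense RNA by its position relative to the sense gene (rows), 1 point per RNA, with a bar at each median and a dashed line at 4. The members inside the sense gene reach farthest right, with 22 of 51 at 4 or more, against 3 of 90 divergent members.

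**Figure D5:**
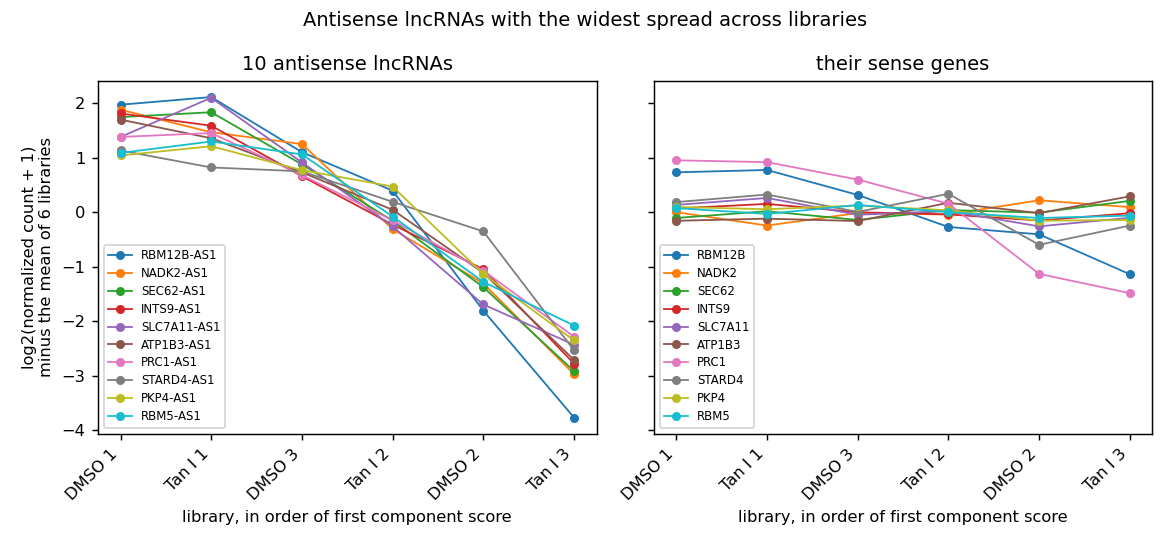
Log2(normalized count + 1) minus the mean of the 6 libraries (vertical axis) for the 10 antisense RNAs with the widest gap (left) and their sense genes (right), with libraries on the horizontal axis in order of their score on the first component. In each antisense RNA the lowest points are DMSO replicate 2 and Tan I replicate 3, and among the sense genes PRC1 and RBM12B also slope down.

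Among the most negative fold changes, those of the following members were of this kind and were not called. NADK2-AS1 had a log2 fold change of -1.21 ± 1.21, STARD4-AS1 of -1.02 ± 0.85, INTS9-AS1 of -0.95 ± 1.15 and RNF213-AS1 of -0.89 ± 0.84. In each of them the libraries within a group differed widely among themselves. The most positive ones, HOXC-AS1, CYP1B1-AS1, PSPC1-AS2, ITGB2-AS1 and NCF4-AS1, included 3 called members. ITGB2-AS1, beside the gene of the leukocyte integrin beta chain, had 14.9, 25.04 and 12.5 in DMSO and 24.4, 30.6 and 29.3 in Tan I (log2 fold change 0.71 ± 0.35), and DMSO replicate 2 lay among the Tan I libraries.

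Genes that act on antisense RNAs were read from the same table. Of 26 genes of nuclear RNA decay (the exosome, its helicase MTREX, and the adaptors that bring RNA to it), 0 were called by limma in either direction, 19 had log2 fold changes above 0, the median was 0.04 and the range was -0.14 to 0.28. Over all genes tested 2.42% were called and 49.7% were above 0, so lists of this size would hold few calls at that share. The highest was SRRT, which links the cap-binding complex to decay (0.28 ± 0.14), and the next was MPHOSPH6, an exosome cofactor (0.27 ± 0.21). Of 19 genes that bind or cut double-stranded RNA, which sense and antisense transcripts can form, 0 were called, 7 were above 0 and the median was -0.04. Their lowest value was that of DICER1, the enzyme that cuts double-stranded RNA, at -0.38 ± 0.30. The median of all genes tested was -0.00.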

How the data were processed

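RNA-seq was performed on NB4 cells with DMSO (3 libraries) or Tan I (3 libraries), grouped by the sample labels, which do not say whether replicates were separate cultures, so p-values measure only the spread between these samples. According to the methods, the authors aligned reads with STAR (GRCh38), kept those with a single location, counted them with featureCounts and tested with DESeq2. Versions, annotation release and strand setting are not given in the sources used here. The deposited signal is read counts divided by 1 size factor per library (0.750 to 1.28). Dividing by the smallest step gave whole reads for 100% of values (tolerance 0.001). The authors' columns of log2 fold change, standard error, Wald statistic and p-values were not used.

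The 16887 genes averaging 10 normalized counts or more were fitted with limma 3.58.1 in R 4.3.3 on log2(normalized count + 1), on treatment alone, with eBayes with a trend and Benjamini-Hochberg adjustment over all of them. Fold changes are on this scale, which understates those of low genes. The study's own test was DESeq2. DESeq2 1.42.0, which gave no adjusted p for 77 members, and edgeR 4.0.16 were run on the recovered reads as alternatives. Group differences of single values were tested by exact two-sided permutation over libraries (smallest p 0.1). The fit was tested on simulated data. Positions and exon lengths came from GENCODE release 44 and start regions from RefSeq. Sense genes were matched by symbol, and 17 were not found.

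The members, gene lists and tests were chosen with earlier results of these data known. Genes were named by a rule: called members, the 10 highest, the 5 largest rises and falls, members with a called sense gene, those beside the limit, a short list of well-studied antisense RNAs, and the sense genes of all these. Other named genes were chosen after their values were seen. Same-numbered libraries deviated together for replicate 1 (correlation 0.75) but not for replicates 2 and 3 (-0.09 and -0.45), so the numbers were not taken to pair samples. A few values of single genes under this rule are not reported here.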

Additional observations from a re-analysis of the deposited data

How the results depend on the processing

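The number of members called was 14. It stayed within 1.5 times of that with pseudocounts of 0.1 and 10, without the filter, with quantile normalization, rescaling, limma without the trend, edgeR and DESeq2. It was 37 with the score on the first component as a covariate (8.86% of all genes) and 0 at a log2 fold threshold of 1 (0.290%). With single libraries left out it was 6 to 23 (0.947 to 8.86%). Among members with a mean of at least 100 it was 6, in a smaller set, since 178 of the 309 members lay below that level. The share of all genes at that level was not computed, so the 6 cannot be set against the 14. The 9 called higher became 23 with the component (4.25% of all genes), and 4 to 10 with single libraries left out (0.456 to 4.32%). The 5 called lower became 14 with the component (4.61% of all genes) and 3 with quantile normalization (0.930%). Among genes with a mean of at least 50, a smaller set, 3 members were called lower (1.01% of genes at that level). Without both DMSO replicate 2 and Tan I replicate 3, a choice made after seeing the data, 1 was called lower (1.22%). With single libraries left out, 13 were called lower without Tan I replicate 1 (4.54%) and 2 without any other (0.480 to 1.04%). With the replicate number as a block, 11 members were called, 8 higher and 3 lower (2.06% of all genes, 1.14% higher and 0.918% lower). The block changes the model only, since the numbers did not pair the libraries. The 0 members with an adjusted p of at most 0.05 became 2 with the component. Called sense genes, 9, became 25 with the component (8.86% of all genes) and 4 to 28 with single libraries left out (0.947 to 8.86%). The count of 28 was without Tan I replicate 1. The 0 called genes of the RNA lists, of 26 and 19 genes, became 1 with the component (8.86% of all genes). With single libraries left out the count was 0 to 3 (0.947 to 8.86%), and the 3 was without Tan I replicate 1 (8.86%). The ratio set apart 20 pairs, and 26 to 72 with single libraries left out. Groups of fewer libraries overlap less often, and the share over other opposite-strand pairs was not computed for those settings. Those counts therefore cannot be set against the 20. No result changed direction among called values. Of the values of single named genes under the alternatives, 958 stayed on their side of the threshold, 94 lost it, 9 gained it and 2 moved.

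With 3 libraries per group an exact test cannot go below 0.1. Members at 20 to 100 normalized counts rest on few reads. The causes of these shifts were not tested. Without a known strand setting, values inside sense genes have uncertain origin.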

Other observations

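Some antisense RNAs outside the comparisons above stood far over their sense genes per kilobase. ZNF385D-AS1 stood 49.7 times above ZNF385D, SVIL-AS1 44.9 times above SVIL, MELTF-AS1 25.3 times above MELTF and AFAP1-AS1 25.2 times above AFAP1. None of these 4 antisense RNAs was called, with log2 fold changes from -0.12 for MELTF-AS1 to 0.09 for SVIL-AS1. They were chosen after their values were seen. For ZNF385D the log2 ratio of antisense to sense was higher by 0.79 after Tan I without overlap, with log2 fold changes of -0.08 for ZNF385D-AS1 and -0.87 for ZNF385D.

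A further 9 antisense RNAs, not called and not described above, did not overlap between the groups, and 3 of them are given here, chosen after their values were seen. RNF139-AS1 had 226, 202 and 248 normalized counts in DMSO and 257, 301 and 295 in Tan I. TMEM161B-AS1 had 1035, 937 and 932 in DMSO and 1218, 1127 and 1059 in Tan I. CPB2-AS1 had 392, 363 and 384 in DMSO and 312, 344 and 311 in Tan I.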
